A study of Homo sapiens with 24 samples.

Results

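The 10 genes described here are BRI3BP, PACC1, GTF3A, IKZF4, COQ10A, POLR2C, GCNT2, IGSF8, ZDHHC12 and GPR153. They were chosen by their level in total RNA of melanoma cells (A2058 by the methods). These mRNAs were lower with siRNA against LSM14A than with control siRNA, both without and with hydroxyurea (HU). They are 10 of the 20345 genes in the count table, and 10 of 38 protein-coding genes that were lower at an adjusted p under 0.05 in both treatments. Values of total RNA are therefore given below as a description without a test, and so are the differences between polysomal and total RNA, which contain them. Polysomal RNA did not enter the choice and was tested, although it comes from the same cultures.

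The methods name A2058, an established line grown from a human melanoma, for the polysome experiment. The paper's figure legend for the sequencing comparison names A375, another melanoma line, and the sample titles name neither. The cells received a control siRNA (siCTRL) or siRNA against LSM14A (siLSM14A), the latter at 20 nM. They were left untreated (NT) or given 10 mM HU for 2 h. HU inhibits ribonucleotide reductase and so depletes the nucleotides for DNA synthesis. The 4 conditions had 3 replicates each, and each replicate gave 1 library of total RNA and 1 of RNA from the heavy polysome fractions (13 to 17) of a sucrose gradient, 24 libraries in all. The methods elsewhere name the 4 heaviest fractions as the source of polysomal RNA, and which holds for these libraries is not settled. Same-numbered total and polysomal libraries of a condition are treated as one culture. The labels number the replicates without saying what separates them, so p-values measure the spread between these samples, which may be technical. Only LSM14A depletion by siRNA in this single line was compared, without a second line or a rescue in these libraries.

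LSM14A belongs to the Scd6 family of RNA-binding proteins, which sit in P-bodies together with the helicase DDX6 and the eIF4E-binding protein EIF4ENIF1 and repress translation or promote turnover of mRNAs. An mRNA carried by many ribosomes sediments deep in a sucrose gradient, so that its share of heavy polysomal RNA relative to its share of total RNA describes how well it is loaded with ribosomes. Where loading stays the same, a lower mRNA level lowers both shares alike, and a change in loading alters their ratio.

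Of the 10 transcripts, 9 hold the 7-base word AACGGAG, 6 of them in the 3′ UTR and 3 in the coding sequence. LSM14A mRNA holds the same word once, in its coding sequence. The word was picked out earlier from the total RNA of these libraries, so its presence among genes chosen on total RNA is a description. Each line below shows 30 bases of the spliced mRNA, 5′ to 3′ in the sense orientation and with T for U, from the hg19 genome. Capitals mark the word, and the coordinates are those of its 7 bases.
PACC1, 3′ UTR, chr1:212538485-212538491, minus strand: ttccactttgtaAACGGAGctatcaacaat
IKZF4, 3′ UTR, chr12:56432142-56432148, plus strand: aaatatttgtgtAACGGAGatatactactg
COQ10A, 3′ UTR, chr12:56664660-56664666, plus strand: gtactgaacggaAACGGAGttgtctttgta
POLR2C, 3′ UTR, chr16:57505056-57505062, plus strand: tgcttcagcaaaAACGGAGattcaggccag
ZDHHC12, 3′ UTR, chr9:131483335-131483341, minus strand: cccagaccccagAACGGAGcttcaagtcag
GPR153, 3′ UTR, chr1:6307461-6307467, minus strand: tagttttttgacAACGGAGcatttctcttc
BRI3BP, coding sequence, chr12:125510032-125510038, plus strand: tcagaaaacgaaAACGGAGgaaaaaaaccc
GTF3A, coding sequence, chr13:28009589-28009595, plus strand: aatctcgtgaaaAACGGAGtttggcctctc
GTF3A, coding sequence, chr13:28009666-28009672, plus strand: tctttgtgtcaaAACGGAGagtcacccaac
GCNT2, coding sequence, chr6:10626682-10626688, plus strand: tgtatctatggaAACGGAGacttaaagtgg
LSM14A, coding sequence, chr19:34712414-34712420, plus strand: atgacaatagagAACGGAGaccaacctggg

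The word lay near the end of the 3′ UTR in IKZF4 (position 3027 of 3104 bases) and in GPR153 (position 1931 of 1985), and near its start in POLR2C (position 25 of 890) and PACC1 (position 66 of 739). In COQ10A it was at position 559 of 649 and in ZDHHC12 at position 119 of 311. The longest stretch around the word that was identical to the LSM14A site was 9 bases, in GCNT2 and ZDHHC12. GTF3A held the word at 2 positions of its coding sequence. IGSF8 did not hold the word in any part of the transcript examined, which is the one with the longest coding sequence, but held its 6-base part ACGGAG in the coding sequence. BRI3BP also held the word in the 3′ UTR of another of its coding transcripts. Among 12504 genes tested in polysomal RNA, 1.9% held the word in the 3′ UTR, 6.0% in the coding sequence and 8.6% anywhere in the transcript. For AACGGA alone these shares were 6.58%, 15.9% and 22.9%, and for ACGGAG alone 10.6%, 27.4% and 38.1%. Only the sense strand was searched. The sequences of the siRNAs are not given in the sources used here, and any match of the word to them was not tested.

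The libraries held 24789280 to 44897501 counts. Between 138 and 5503 counts fell on any of the 10 genes in a total RNA library, and between 20 and 8710 in a polysomal one, with IKZF4 the lowest in both fractions. Of 8 melanocyte lineage markers, all had a median of at least 1 CPM (the counts-per-million scale, after TMM scaling) in total RNA. Their single libraries ran from 3.92 to 911 CPM, with the median of SOX10 the highest but one at 606 CPM. Of 8 measured markers of leukocytes, epithelium, endothelium and fibroblasts, 2 also had a median of at least 1 CPM, and none exceeded 2.52 CPM. LSM14A itself, the target, was at 84.3 ± 2.39 CPM (SD, n = 3) in untreated siCTRL total RNA and at 7.53 ± 0.720 CPM with siLSM14A. Under HU it was at 86.2 ± 5.36 CPM and 6.81 ± 0.777 CPM. In polysomal RNA it retained 4.80% of the control level without and 6.48% with HU, by the fitted change.

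**Figure D1:**
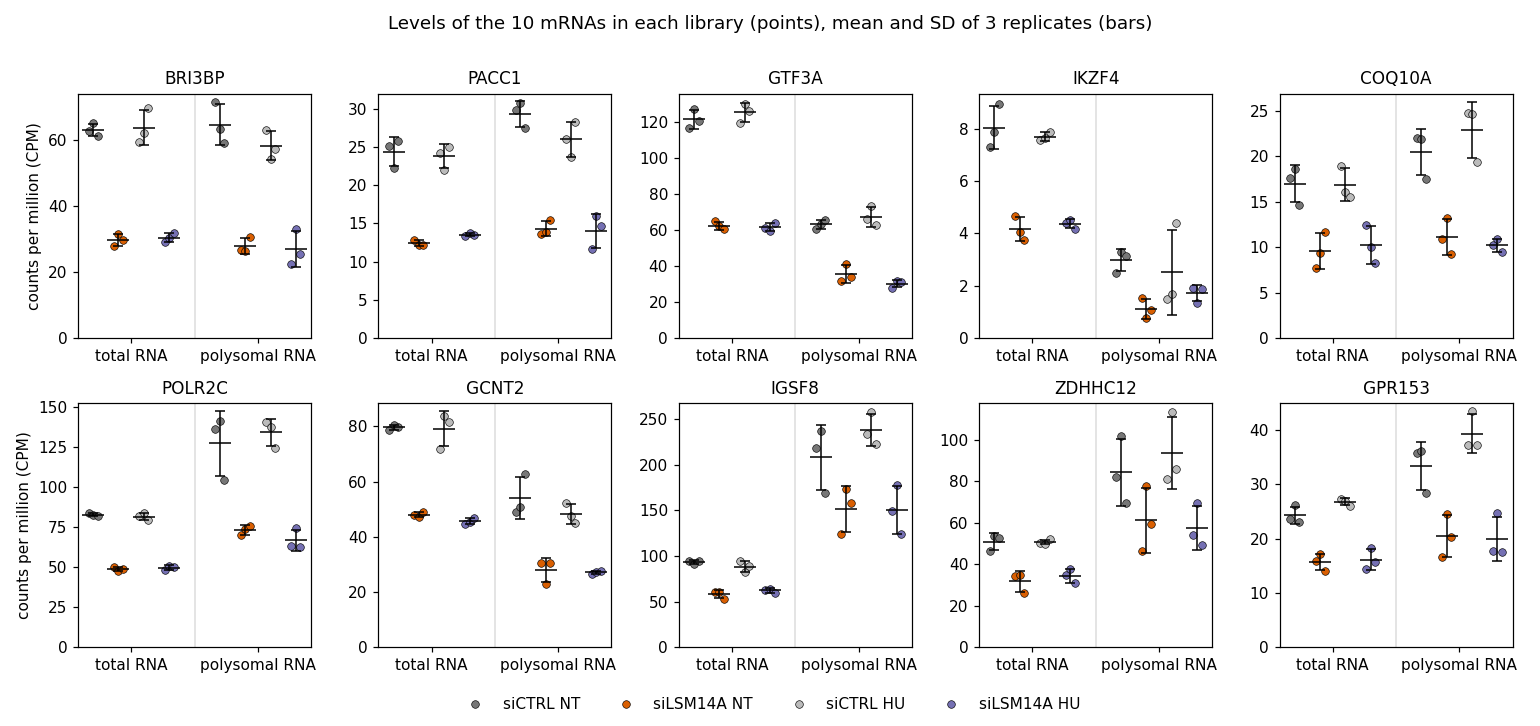
Level of each of the 10 mRNAs in CPM in total and polysomal RNA, 1 point per library, with the mean and SD of 3 replicates as bars, for siCTRL and siLSM14A without (NT) and with HU. In total RNA, which chose the genes, the siLSM14A points lie below all siCTRL points of the same treatment for all 10 genes, and in polysomal RNA for 8 of 10 without and 9 of 10 with HU. Over all genes this held in total RNA for 7.76% without and 6.51% with HU, and in polysomal RNA for 3.59% and 4.92%.

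In untreated total RNA the 10 mRNAs stood at 47.0% (BRI3BP) to 64.4% (GPR153) of their siCTRL level, with a median log2 change of -0.79 against 0.00 over all 12544 genes tested. With HU they stood at 47.6% (BRI3BP) to 70.2% (IGSF8), and the median log2 change was -0.77. These values come from the comparisons that chose the genes. In those comparisons 0.391% of all tested genes were called lower without HU and 0.561% with HU, and 452 genes in place of 70 with HU when the replicate number was a block. All 10 had every siLSM14A library below every siCTRL library in both treatments, as had 7.76% of all genes without and 6.51% with HU. Among the 38 genes, IKZF4, GPR153, ZDHHC12 and COQ10A were closest to the threshold of the 10 (largest adjusted p 0.00637, 0.00763, 0.0171 and 0.0316), and the first gene outside it was VSIG10 (adjusted p 0.0506 without HU). In bulk RNA, fewer cells holding an mRNA and less of it per cell cannot be told apart.

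The separation in total RNA was wide for POLR2C, GCNT2 and BRI3BP. POLR2C was at 83.5, 82.7 and 81.9 CPM in the untreated siCTRL replicates and at 50.1, 47.7 and 48.6 CPM with siLSM14A. GCNT2 went from 78.7, 80.4 and 79.8 CPM to 47.8, 47.1 and 48.9 CPM, and BRI3BP from 62.8, 65.1 and 61.4 CPM to 27.99, 31.4 and 29.8 CPM. Replicates of these 3 genes lay close together, and the siRNA groups far apart. PACC1 had 25.2, 22.2 and 25.8 CPM with siCTRL and 12.8, 12.2 and 12.2 CPM with siLSM14A. The groups came closer in COQ10A, ZDHHC12 and GPR153. COQ10A had 17.7, 18.6 and 14.7 CPM and 7.73, 9.37 and 11.6 CPM, ZDHHC12 46.3, 53.8 and 52.5 CPM and 34.4, 34.8 and 25.9 CPM, and GPR153 23.6, 26.1 and 23.1 CPM and 15.9, 17.1 and 14.1 CPM. With HU the highest siLSM14A value of COQ10A was 12.4 CPM and the lowest siCTRL value 15.5 CPM.

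In polysomal RNA all 10 mRNAs were lower with siLSM14A in the average of both treatments, and 7 passed the test. These were BRI3BP, COQ10A, GTF3A, PACC1, POLR2C, GCNT2 and GPR153, with adjusted p from 0.000155 to 0.0111, whereas 0.128% of all 12515 genes were called lower, 16 in all. The median log2 change of the 10 was -0.92, which is 52.9% of the control level, against 0.02 over all genes. IKZF4, IGSF8 and ZDHHC12 did not pass (adjusted p 0.620, 0.159 and 0.387), although their log2 changes were -0.95, -0.55 and -0.57. All 10 had an unadjusted p under 0.05, as had 4.29% of all genes.

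Taken separately, the treatments gave fewer calls. Without HU none of the 10 passed edgeR's test, where 0.0162% of all genes (2 genes) were called lower, while 9 of 10 had an unadjusted p under 0.05, against 1.96% of all genes, and DESeq2 called 4 among 8 genes lower in all. The smallest adjusted p was that of BRI3BP at 0.0951. With HU 4 passed (GTF3A, POLR2C, COQ10A and BRI3BP), against 0.0653% of all genes, and 9 of 10 had an unadjusted p under 0.05, against 4.99%. The 4 calls with HU depended on single libraries, as none remained without siCTRL replicate 1, siCTRL replicate 2 or siLSM14A replicate 1 under HU, and 1 remained without siLSM14A replicate 3. In 8 of 10 genes the 3 untreated siLSM14A polysomal libraries lay below all siCTRL ones (IGSF8 and ZDHHC12 overlapped), against 3.59% of all genes, and in 9 of 10 with HU (IKZF4 overlapped), against 4.92%. The median log2 change of the 10 was -0.86 without and -0.93 with HU.

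POLR2C, GTF3A and IKZF4 act in transcription. POLR2C encodes the third largest subunit of RNA polymerase II. Its polysomal level was 136, 142 and 104 CPM in the untreated siCTRL replicates and 70.1, 73.99 and 75.9 CPM with siLSM14A. Under HU it was 140.4, 138 and 125 CPM and 63.4, 74.4 and 62.6 CPM. Every siLSM14A library was thus well under the lowest control. The log2 change over both treatments was -0.89 (SE 0.10), adjusted p 0.000349, and in total RNA it was -0.77 (SE 0.05) without and -0.72 (SE 0.06) with HU.

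GTF3A is TFIIIA, the zinc finger factor that binds the internal promoter of 5S rRNA genes and brings them to RNA polymerase III. Total RNA held 117, 127 and 121 CPM in untreated siCTRL cells and 64.8, 62.2 and 60.4 CPM with siLSM14A. Polysomal RNA held less, 60.6, 63.5 and 65.5 CPM and 31.4, 40.9 and 34.01 CPM. With HU the polysomal values were 65.96, 73.5 and 62.7 CPM with siCTRL and 27.9, 31.6 and 31.1 CPM with siLSM14A. The groups did not overlap in either fraction or treatment. The polysomal log2 change was -0.99 (SE 0.10) over both treatments, adjusted p 0.000155, and -1.15 (SE 0.14) with HU alone, adjusted p 0.00716.

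IKZF4 (Eos) is a zinc finger transcription factor of the Ikaros family, known best from regulatory T cells. It was the least abundant of the 10, at 7.33, 7.87 and 8.94 CPM in untreated siCTRL total RNA and 4.68, 4.07 and 3.75 CPM with siLSM14A. In polysomal RNA it had 2.49, 3.30 and 3.12 CPM and 1.52, 0.772 and 1.06 CPM without HU. With HU it had 1.47, 1.69 and 4.38 CPM with siCTRL and 1.93, 1.35 and 1.88 CPM with siLSM14A. Replicate 3 of the HU-treated siCTRL polysomal libraries stood apart from the other 2, and the groups overlapped there. The log2 change with HU was -0.53 (SE 0.39) and became 0.13 (SE 0.31) without that library, neither passing the test (adjusted p 0.739 and 0.827). Without it the change over both treatments was -0.62 (SE 0.21, adjusted p 0.824).

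PACC1, BRI3BP, GPR153 and IGSF8 encode membrane proteins. PACC1 is the proton-activated chloride channel. Its polysomal level was 29.8, 30.7 and 27.4 CPM with siCTRL and 13.7, 13.9 and 15.4 CPM with siLSM14A in untreated cells, and was 26.1, 23.6 and 28.2 CPM and 11.6, 15.9 and 14.6 CPM with HU. Over both treatments this was a log2 change of -0.95 (SE 0.11), adjusted p 0.000802. Total RNA changed by -0.98 (SE 0.08) without and -0.82 (SE 0.08) with HU.

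BRI3BP, a membrane protein named for its binding to BRI3, showed the largest loss of the 10 in polysomal RNA in the average of both treatments. It stood at 71.7, 63.5 and 59.2 CPM with siCTRL and 26.8, 26.3 and 30.6 CPM with siLSM14A in untreated polysomal RNA. Under HU it stood at 63.1, 54.4 and 57.4 CPM and 22.3, 32.98 and 25.6 CPM. All siLSM14A libraries were far below the lowest control of their treatment. The log2 change was -1.16 (SE 0.11), adjusted p 0.000155, close to -1.09 (SE 0.06) and -1.07 (SE 0.07) in total RNA.

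GPR153 is an orphan receptor of the G protein-coupled class. Untreated polysomal RNA held 35.9, 36.1 and 28.4 CPM with siCTRL and 16.6, 24.5 and 20.4 CPM with siLSM14A. With HU the values were 37.2, 43.6 and 37.3 CPM and 17.7, 24.7 and 17.6 CPM. The groups did not overlap, and the log2 change of -0.83 (SE 0.13) over both treatments passed with an adjusted p of 0.0111. Without siCTRL NT replicate 2, siLSM14A HU replicate 1 or siLSM14A HU replicate 3 it did not pass (adjusted p up to 0.0721).

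IGSF8 (EWI-2) is an immunoglobulin superfamily protein that associates with the tetraspanins CD9 and CD81. It was the most abundant of the 10 in polysomal RNA, at 219, 237 and 169 CPM in untreated siCTRL cells and 124, 174 and 158 CPM with siLSM14A. With HU it was at 234, 258 and 223 CPM and 149.6, 178 and 125 CPM. Its untreated groups overlapped through siCTRL replicate 3 and siLSM14A replicate 2. In total RNA the siLSM14A libraries held 60.2, 60.8 and 53.3 CPM without HU, all below the 94.9, 90.9 and 94.9 CPM of the controls.

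The remaining genes encode enzymes and a lipid-binding protein. COQ10A binds coenzyme Q in mitochondria. It had 21.97, 21.9 and 17.6 CPM with siCTRL and 10.9, 13.2 and 9.20 CPM with siLSM14A in untreated polysomal RNA. With HU it had 24.8, 24.6 and 19.4 CPM and 10.2, 10.9 and 9.52 CPM. The groups were separate in both treatments. Its polysomal log2 change was -1.02 (SE 0.12) over both, adjusted p 0.00111, and its total RNA changed by -0.82 (SE 0.14) and -0.73 (SE 0.13).

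GCNT2 is the glycosyltransferase that makes the branched I antigen on poly-N-acetyllactosamine chains. In untreated polysomal RNA it was at 48.9, 50.6 and 62.7 CPM with siCTRL and 30.4, 22.8 and 30.6 CPM with siLSM14A. With HU it was at 52.05, 47.6 and 44.8 CPM and 26.5, 27.1 and 27.6 CPM. Its siLSM14A replicates with HU were close to each other, and the groups did not overlap. The log2 change over both treatments was -0.88 (SE 0.11), adjusted p 0.00216.

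ZDHHC12 belongs to the DHHC enzymes that attach palmitate to cysteines of proteins. It was at 81.97, 102 and 69.6 CPM with siCTRL and 46.5, 77.8 and 59.5 CPM with siLSM14A in untreated polysomal RNA. With HU it was at 81.2, 114 and 86.02 CPM and 54.3, 69.5 and 49.1 CPM. In both siRNA groups and both treatments replicate 2 was the highest, and the untreated groups overlapped. The log2 change over both treatments was -0.57 (SE 0.14), and in total RNA it was -0.69 (SE 0.11) and -0.57 (SE 0.07).

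**Figure D2:**
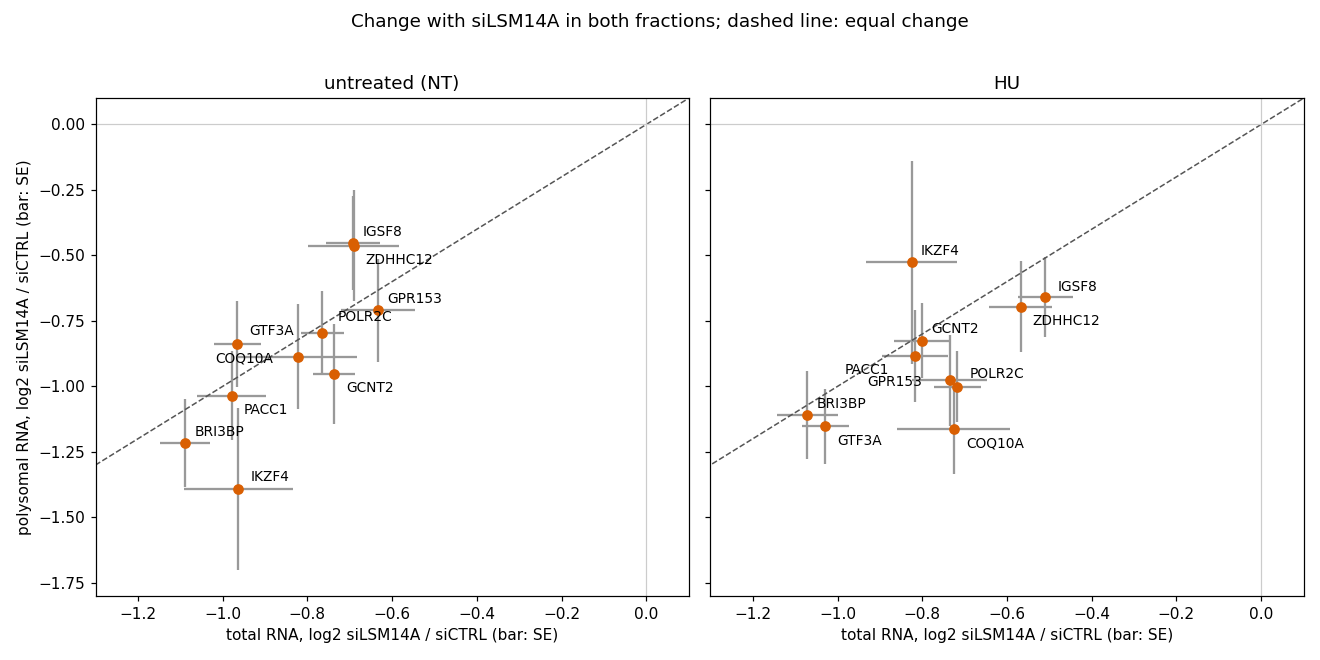
Log2 change with siLSM14A in total RNA (x axis) against polysomal RNA (y axis) for the 10 genes, without HU (left) and with HU (right), with standard errors as bars and a dashed line where both changes are equal. Of the 10 points, 7 lie below the line without HU and 9 with HU. The x values chose the genes, so these counts are a description.

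The losses in total and polysomal RNA differed little relative to their errors, which come from a fit that did not pair the 2 fractions of a culture. The polysomal minus the total log2 change had a median of -0.06 over the 10 without HU and of -0.13 with HU, against -0.01 and 0.01 over all genes. With the culture as a block the medians of the 10 were -0.05 and -0.13. Standard errors from that fit are not given here. Without HU 7 of the 10 differences were below 0, 7 of 10 were within 1 standard error of 0 and all 10 within 2. They ranged from -0.43 (SE 0.30) for IKZF4 to 0.24 (SE 0.20) for IGSF8. With HU 9 of 10 were below 0, 7 of 10 within 1 standard error and 8 within 2, the others being COQ10A at -0.44 (SE 0.22) and POLR2C at -0.29 (SE 0.13). IKZF4 alone was above 0, at 0.30 (SE 0.43), and at 0.95 (SE 0.27) without siCTRL HU replicate 3. Of 11557 genes without the 7-base word, 49.3% were below 0 with HU, and of 11654 such genes 50.9% without HU. The shares of all genes within 1 or 2 standard errors were not counted. As these differences contain the total RNA that chose the genes, the counts are a description. No gene of the whole table passed an adjusted p under 0.05 for this difference in either treatment, while 111 genes without and 487 with HU had an unadjusted p under 0.05, and DESeq2 also called 0. LSM14A itself differed by -0.89 (SE 0.26) without and -0.29 (SE 0.23) with HU.

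The ratio of polysomal to total RNA, per culture and with 0.1 CPM added to both, spanned a wide range among the 10 genes. In untreated siCTRL cells its log2 was 1.21, 1.38 and 0.83 for IGSF8 and -1.52, -1.23 and -1.49 for IKZF4. These are the 95.2 and 4.88 percentiles of all genes. ZDHHC12 had 0.82, 0.92 and 0.41, POLR2C 0.71, 0.78 and 0.35 and GTF3A -0.95, -1.002 and -0.88. The genes lowered by siLSM14A thus included mRNAs poor and rich in heavy polysomes. The ratios of siCTRL and siLSM14A cultures overlapped in 9 of 10 genes without HU, the exception being IKZF4, and in 7 of 10 with HU. Over all genes, 3.46% had no overlap without HU (2.07% with siLSM14A lower) and 10.5% with HU (5.58% with siLSM14A lower). As these ratios contain the total RNA that chose the genes, nothing is read from the counts. COQ10A had 0.39, 0.61 and 0.32 with siCTRL and -0.28, 0.13 and 0.20 with siLSM14A, POLR2C 0.78, 0.71 and 0.65 and 0.40, 0.55 and 0.32, and GPR153 0.44, 0.69 and 0.52 and 0.29, 0.43 and 0.16. In these 3 genes, as in IKZF4 without HU, the siLSM14A cultures had the lower ratio.

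**Figure D3:**
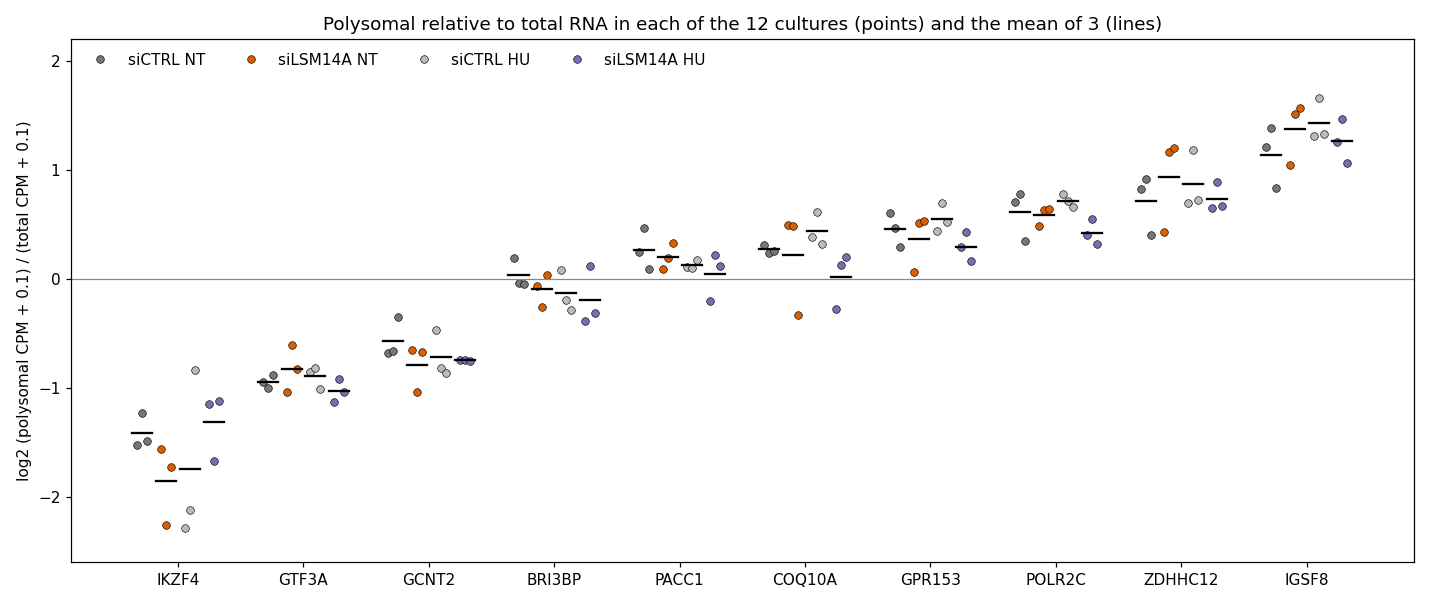
Log2 ratio of polysomal to total RNA (CPM + 0.1) in each of the 12 cultures for the 10 genes, in order of their mean in untreated siCTRL cells, with lines at the mean of 3. The means in untreated siCTRL cells run from about -1.41 for IKZF4 to 1.14 for IGSF8, though some genes are alike, such as PACC1 and COQ10A (both 0.27). Within COQ10A the means of the conditions run from 0.02 (siLSM14A HU) to 0.44 (siCTRL HU).

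In polysomal RNA none of the 10 passed the test for a change with HU. The total RNA libraries are those that chose the genes, so their HU values and counts for the 10 are a description. In total RNA the log2 change with HU lay between -0.09 (IGSF8) and 0.14 (GPR153) in siCTRL cells and between -0.08 (GCNT2) and 0.12 (PACC1) in siLSM14A cells, with standard errors up to 0.16. In polysomal RNA it lay between -0.24 (IKZF4) and 0.24 (GPR153) in siCTRL cells and between -0.23 (GTF3A) and 0.61 (IKZF4) in siLSM14A cells. Without siCTRL HU replicate 3 the value for IKZF4 in siCTRL cells was -0.92 (SE 0.30, unadjusted p 0.00983, adjusted p 0.646). No gene of the table passed edgeR's test in these 4 comparisons (0.0% called), with 180, 650, 259 and 107 genes at an unadjusted p under 0.05, none of them among the 10, and DESeq2 called 1 gene in siCTRL total RNA. When the fit was blocked on the replicate number, 5 genes were called lower and 10 higher in siCTRL total RNA and 1 lower in siCTRL polysomal RNA, again none of the 10. The difference of the polysomal siLSM14A effect between HU and NT was tested directly and also called 0 of 12515 genes, with 134 at an unadjusted p under 0.05 and 0 calls by DESeq2. For the 10 it ranged from -0.30 (SE 0.19) for GTF3A to 0.88 (SE 0.54) for IKZF4, with no unadjusted p under 0.124. Without siCTRL HU replicate 3 the difference for IKZF4 was 1.53 (SE 0.42), with an unadjusted p of 0.00307 and an adjusted p of 0.747.

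Genes of the same families and pathways did not pass the test in any comparison by edgeR, where calls were rare over all genes. With siLSM14A 0.391% of all genes were called lower in total RNA without and 0.561% with HU, and 22 and 30 genes higher. In polysomal RNA 0.128% were called lower over both treatments, 0.0162% without and 0.0653% with HU, and no gene higher. Of 77 such genes measured in total RNA 11 had an unadjusted p under 0.05 without and 3 with HU, where 10.8% and 8.54% of all genes had one. Of 76 in polysomal RNA 1 had one over both treatments, 2 without and 0 with HU, against 4.29%, 1.96% and 4.99% of all genes. The lists were not counted by DESeq2. Of 11 other subunits of RNA polymerase II, total RNA changed by -0.11 (POLR2E) to 0.11 (POLR2D) on the log2 scale in untreated cells, and polysomal RNA by -0.13 to 0.13 over both treatments. Of 10 other factors of RNA polymerase III transcription, total RNA changed by -0.08 (GTF3C1) to 0.07 (GTF3C6). The 12 other coenzyme Q genes lay between -0.15 (COQ8A) and 0.28 (COQ10B), the latter the closest relative of COQ10A. Among 19 measured DHHC enzymes ZDHHC20 was lowest, at -0.19 in untreated total RNA and -0.41 (SE 0.32) in polysomal RNA over both treatments. Its polysomal change was -1.06 (SE 0.41, adjusted p 0.9998) without and 0.22 (SE 0.37) with HU, and thus lower than that of ZDHHC12 in untreated cells. GCNT1 was at -0.37, and IKZF2 and IKZF5, the measured relatives of IKZF4, at 0.20 and 0.02. The tetraspanins and relatives of IGSF8 lay between -0.12 and 0.07, and the LRRC8 subunits of volume-regulated anion channels between -0.05 and 0.13. Of 9 partners of LSM14A in mRNA repression, LSM14B was at -0.18 and DCP2, the decapping enzyme, at 0.26. The list medians in untreated total RNA were between -0.19 and 0.11, against 0.00 for all genes.

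**Figure D4:**
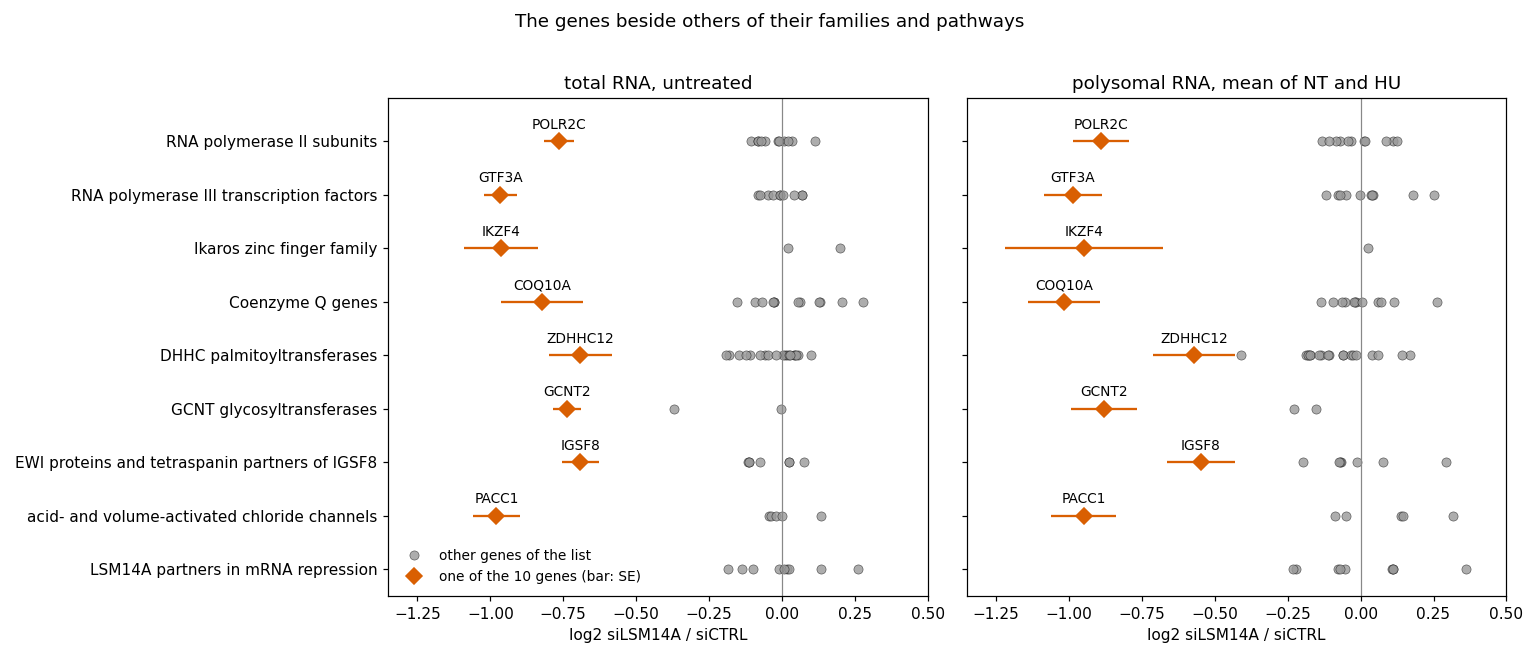
Log2 change with siLSM14A of 8 of the 10 genes (diamonds, with standard errors) and of the other measured genes of each fixed family or pathway (circles), in untreated total RNA and in polysomal RNA averaged over both treatments. In total RNA the circles lie between -0.37 and 0.28, apart from the diamonds at -0.69 to -0.98, which chose these genes.

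The 10 genes lie on 6 autosomes, with 3 each on chromosomes 1 and 12. On hg19 GPR153 (ENSG00000158292) lies at chr1:6307413-6321158, IGSF8 (ENSG00000162729) at chr1:160061130-160068733 and PACC1 (ENSG00000065600) at chr1:212537270-212588243 (all on the minus strand), and IKZF4 (ENSG00000123411) at chr12:56401443-56432219, COQ10A (ENSG00000135469) at chr12:56660674-56664750 and BRI3BP (ENSG00000184992) at chr12:125478191-125515777 (plus strand). GCNT2 (ENSG00000111846) is at chr6:10492456-10629601, GTF3A (ENSG00000122034) at chr13:27998756-28009960 and POLR2C (ENSG00000102978) at chr16:57496572-57505921 (plus strand), and ZDHHC12 (ENSG00000160446) at chr9:131483149-131486406 (minus strand). GTF3A, POLR2C and ZDHHC12 overlap another protein-coding gene on the opposite strand, at their 3′ ends. The neighbours are MTIF3 for GTF3A, DOK4 for POLR2C and PKN3 for ZDHHC12. In untreated total RNA MTIF3 changed by 0.05 (SE 0.07), DOK4 by -0.02 (SE 0.07) and PKN3 by -0.16 (SE 0.06). The kit kept the strand, but the setting of the counting is not given in the sources used here.

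Their transcripts were not of one kind. Exon length ran from 2592 bases in IGSF8 to 9210 in GCNT2, with a median of 3438 against 5457 over all genes (quartiles 3475 and 8223). The 3′ UTR ran from 226 bases in GTF3A to 5708 in BRI3BP, with a median of 815 against 1142. Exon GC ran from 44.4% in GCNT2 to 66.5% in GPR153, with a median of 49.9% against 47.8%. Their level per kilobase of exon in untreated siCTRL total RNA ran from 1.18 CPM for IKZF4 to 41.6 CPM for GTF3A, with a median of 9.03 against 4.74.

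Genes that were not among the 10 were used to describe the word in other transcripts. They are not outside the choice of the word, which was picked out from the total RNA of these libraries. In polysomal RNA over both treatments, the 232 other genes with the word in the 3′ UTR had a median log2 change of -0.05 (quartiles -0.18 and 0.07), the 730 with it in the coding sequence only -0.03 (quartiles -0.14 and 0.11), and the 11428 without it 0.02 (quartiles -0.08 and 0.13). Below 0 were 63.8%, 57.3% and 44.9% of them. Most genes with the word changed far less than the 10, which were chosen for their loss, so nothing is read from this difference. Without HU the medians were -0.11, -0.09 and 0.00, and with HU -0.03, 0.02 and 0.01. Words held by at least 50 genes were ranked from the lowest difference of medians up. The word stood at place 102 of 16177 over both treatments (difference -0.08), at place 5 of 16173 without HU (-0.11) and at place 1451 of 16167 with HU (-0.05). With words held by at least 20 genes included, the places were 115, 13 and 1537. Without the 10 genes it stood at places 230, 6 and 1749. Other words ranked lower in all 3, and these polysomal libraries come from the same cultures as the total RNA in which the word was first seen.

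**Figure D5:**
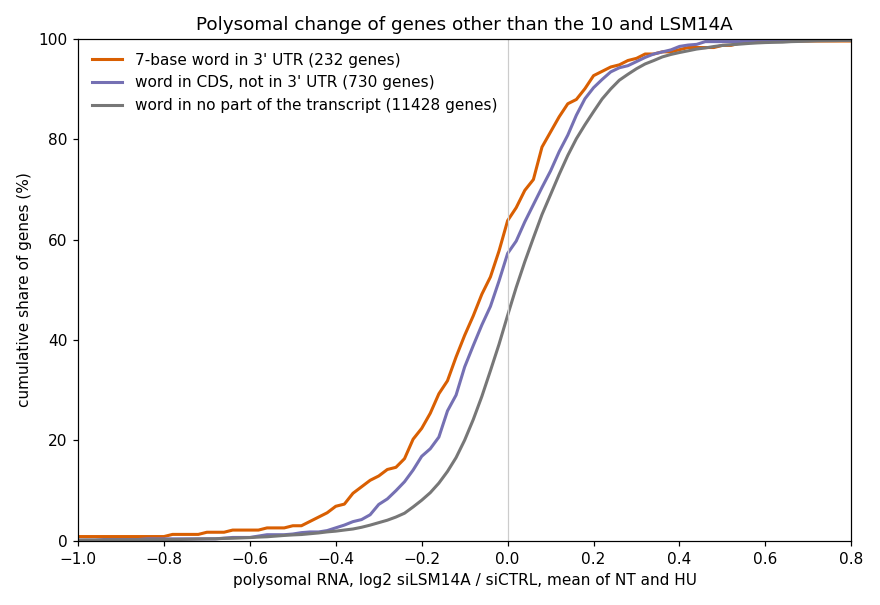
Cumulative share of genes by their log2 polysomal change with siLSM14A, averaged over both treatments, for genes with the 7-base word in the 3′ UTR (232), in the coding sequence only (730) or nowhere in the transcript (11428), without the 10 genes and LSM14A. At a change of 0 the curves stand at 63.8%, 57.3% and 44.9%.

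Beside the 10, LSM14A and 27 other genes were lower in total RNA in both treatments. Among those with the smallest p were TAP1 (a subunit of the peptide transporter of antigen presentation), EIF3F (a subunit of initiation factor eIF3), CDC123 (an assembly factor of eIF2) and CUX1 (a homeobox transcription factor). Their log2 changes in untreated total RNA were -1.43 (SE 0.08), -1.02 (SE 0.07), -0.46 (SE 0.05) and -0.54 (SE 0.06). In polysomal RNA over both treatments TAP1 was at -1.51 and EIF3F at -1.05, both past the test (largest adjusted p 0.000155), and CDC123 at -0.38 and CUX1 at -0.37 were not (adjusted p 0.226 and 0.939). Of the 27, 7 held the word in the 3′ UTR, 5 in the coding sequence only and 15 nowhere in the transcript examined, of which 4 (EIF3F, OSTC, BCL7B and EIF4E2) held it in the 3′ UTR of another coding transcript. Of the 16 genes called lower in polysomal RNA over both treatments, 14 were among the 38.

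The profile of the 10 over the 12 total RNA libraries, as the mean of their centred log2 CPM, was closely similar in LSM14A (Pearson's r 0.996), EIF3F (0.994), TAP1 (0.989) and TSKU (0.985), a secreted leucine-rich repeat protein. Over the 12 polysomal libraries the same genes had r of 0.973, 0.973, 0.984 and 0.850. The 10 genes were chosen on the siRNA difference in total RNA, so these values describe mainly the difference between siCTRL and siLSM14A. Single members had r of 0.892 to 0.994 with the mean in total RNA, which includes them.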

How the data were processed

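RNA of melanoma cells, A2058 by the methods, was measured in 24 libraries. Per the labels and methods, poly(A) RNA was sequenced from stranded libraries, the authors aligned reads to hg19 with STAR 2.6.1a and counted them on Gencode genes (release 34), and the deposited values are raw counts per gene, without normalization. Totals were 24789280 to 44897501 counts per library. Counting error limits genes with few counts, such as IKZF4.

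Of 20345 gene IDs, 19637 were in the Gencode 44 annotation of hg19 (lift37) used here, 19086 of them protein-coding, and 708 were not. Protein-coding genes that passed filterByExpr (minimum count 10, minimum total count 15) were tested within the libraries compared, using the quasi-likelihood test of edgeR 4.0.16 (R 4.3.3) after TMM scaling. Benjamini-Hochberg adjustment ran over all genes tested, with a threshold of 0.05. The polysomal minus total effect is the interaction of fraction and siRNA, fitted without pairing the fractions of a culture. CPM are TMM-scaled, and the log2 ratio per culture used 0.1 CPM added. Transcript parts came from the transcript with the longest coding sequence. The code was tested on simulated counts.

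The members, the lists and the 7-base word were chosen with earlier results of these data known. Named beside the 10 genes are LSM14A, listed genes that passed the test, the 5 other genes with the smallest p among those lower in total RNA in both treatments, the 5 most correlated genes over total RNA libraries, genes that overlap a member, and, chosen after their values were seen, the extremes of each list, the marker with the value quoted and the gene just outside the threshold. An item that these rules would name is not reported here.

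No pair of replicates agreed within sampling noise (smallest chi-square per gene 6.21). Same-numbered replicates deviated together, all 3 pairs above a correlation of 0.1, between siLSM14A and siCTRL total RNA with HU (0.35, 0.19 and 0.27). The same held between HU and NT in siCTRL cells, for total RNA (0.27, 0.24 and 0.18) as for polysomal RNA (0.25, 0.19 and 0.46). It did not hold between siLSM14A and siCTRL total RNA without HU (-0.26, 0.27 and -0.22). Nor did it hold between HU and NT in siLSM14A cells, for total RNA (-0.14, 0.22 and -0.02) or polysomal RNA (0.29, 0.18 and -0.22). Alternatives were RLE size factors, no filter, all gene rows, the replicate number as a block, a GC correction (loess, span 0.3), both together, all libraries of a fraction in one fit, DESeq2 1.42.0, each replicate left out, and the culture as a block, which was added after seeing the data.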

Additional observations from a re-analysis of the deposited data

How the results depend on the processing

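Of 183 alternatives, 171 kept the value of the result within 1.5 times the count of genes or within the spread between replicates, and 12 did not. This tally includes results that could hardly move. In the HU against NT comparisons and the difference of the polysomal siLSM14A effect between HU and NT, 0 of the 10 passed in every setting. For the polysomal minus total medians (-0.055 without and -0.13 with HU) the spread allowed was 0.188, more than the values themselves. Without HU, where none of the 10 genes passed in polysomal RNA, 1 passed without a filter on low counts, 2 with the GC correction, 3 with all libraries of the fraction in one fit and 4 with DESeq2, where all genes called lower numbered 4, 5, 7 and 8 in place of 2. With HU, where 4 passed, 9 passed with the replicate number as a block, 7 with the replicate block and the GC correction together, 7 with DESeq2, and 0 to 4 when a replicate was left out. All genes called there were 8 lower and 0 higher, but 24 and 16 with the block, 14 and 3 with the block and GC correction, and 20 and 2 with DESeq2. The same-numbered polysomal libraries of the siRNA groups did not all deviate together (correlations of -0.40, 0.24 and -0.35 without and 0.04, 0.29 and 0.41 with HU), so that the number is not known to pair them. Over both treatments, where 7 passed, 8 passed with the replicate block, 7 to 9 over all other alternatives and 6 to 7 when a replicate was left out. BRI3BP, COQ10A, GTF3A, PACC1, POLR2C and GCNT2 passed in all 19 of these. The count of all genes called lower there was 16, but 26 with the GC correction, 29 with it and the block, 31 with DESeq2 and 11 to 17 with a replicate left out. The choice of the genes itself rested on single libraries for 3 of them: in untreated total RNA COQ10A, IKZF4 and ZDHHC12 did not pass without siCTRL replicate 3, COQ10A and ZDHHC12 without siCTRL replicate 2, and COQ10A without siCTRL replicate 1, siLSM14A replicate 1 or 2, or with the replicate block. With HU COQ10A alone was lost, without siCTRL replicate 2 or siLSM14A replicate 2 or 3. In total RNA the median log2 change of the 10 stayed at -0.83 to -0.76 without and -0.81 to -0.76 with HU. The polysomal minus total median lay at -0.11 to 0.02 without HU, above 0 only without siLSM14A replicate 1, and at -0.21 to -0.08 with HU. The rank of the word in polysomal RNA moved from 102 to 24 when the 3′ UTRs of all coding transcripts were joined, and the median log2 ratio of the 10 from 0.27 to 0.26 with 1 CPM added. The cause of these shifts was not tested.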
